A study of Arabidopsis thaliana with 28 samples.

Results

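The pericentromeric bins were 381 of the 2385 bins of 50 kb into which the Hi-C matrices divide the 5 chromosomes of Arabidopsis thaliana. They were chosen by position on the TAIR10 genome, as every bin inside chr1:13050001-16600000 (71 bins), chr2:2050001-6300000 (85 bins), chr3:11200001-15850000 (93 bins), chr4:2700001-5500000 (56 bins) and chr5:10050001-13850000 (76 bins). These intervals take up between 11.7% of chromosome 1 and 21.6% of chromosome 2. They had been set from the density of protein-coding genes, so a low gene number in them is no finding. Of the 381 bins, 375 had Hi-C signal in every library, and the 6 empty bins were 5 on chromosome 1 and 1 on chromosome 5. The remaining bins were divided into 234 chromosome end bins, which took in the last 5% of the chromosome on either side, and 1770 arm bins.

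The study compared diploid Col-0, the reference accession, with 4 × Col-0, an autotetraploid line obtained from Col-0 by colchicine treatment, so that the genotypes differ in the number of copies of the same genome. Seeds of both had a cold treatment of 3 days at 4 °C, and plants then grew for 10 days on MS medium with 1% sucrose, with 16 h of light and 8 h of darkness a day. Aerial parts were harvested, which hold many cell types, so that a change in the mix of cells and a change in each cell cannot be told apart. In Hi-C, HindIII-cut ends that are neighbours in fixed nuclei are ligated and the joined pairs counted. Hi-C and ChIP-seq of H3K27me3 and of H3K4me3 had 2 samples per genotype, and anti-H3 ChIP-seq had 1. RNA-seq had 3 samples per genotype, which the RNA table gives as 1 value per gene and genotype. The paper calls the Hi-C, H3K27me3 and H3K4me3 replicates biological, but the labels do not say whether those of a genotype came from separate plantings. The p-values thus measure only the spread between these libraries, which may be technical.

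Pericentromeres flank the centromeres and are packed into heterochromatin, which is rich in transposons and tandem repeats and poor in active genes. In Arabidopsis nuclei they gather in dense bodies called chromocenters, and pericentromeres of different chromosomes can meet in the same chromocenter. H3K27me3 is the mark that Polycomb complexes place on silent genes of euchromatin, H3K4me3 marks the starts of active genes, and histone H3 itself is present wherever there are nucleosomes. The centromeres of all chromosomes hold a tandem repeat with a unit of 178 bp, and the short arms of chromosomes 2 and 4 carry arrays of ribosomal RNA genes at their ends.

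Copies of the 178 bp repeat are shown first, 1 from the bin of each chromosome that had the most contacts with other pericentromeres, because the strongest contacts described here involve these bins. The sequences are from the RefSeq assembly TAIR10.1, whose chromosomes have the lengths and the number of bins of the deposited matrices, and each is written 5′ to 3′ on the strand named. Capitals mark the HindIII site AAGCTT, which reads the same on both strands and with which each unit was chosen to begin.
178 bp unit of chromosome 1, chr1:15081974-15082151, plus strand: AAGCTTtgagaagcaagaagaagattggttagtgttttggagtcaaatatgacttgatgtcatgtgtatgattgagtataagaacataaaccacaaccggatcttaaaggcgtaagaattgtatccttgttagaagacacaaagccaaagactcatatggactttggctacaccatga
178 bp unit of chromosome 2, chr2:3605814-3605991, minus strand: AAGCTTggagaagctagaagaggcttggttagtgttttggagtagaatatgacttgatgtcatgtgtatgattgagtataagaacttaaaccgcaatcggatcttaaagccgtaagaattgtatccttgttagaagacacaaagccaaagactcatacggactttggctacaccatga
178 bp unit of chromosome 3, chr3:13588787-13588964, plus strand: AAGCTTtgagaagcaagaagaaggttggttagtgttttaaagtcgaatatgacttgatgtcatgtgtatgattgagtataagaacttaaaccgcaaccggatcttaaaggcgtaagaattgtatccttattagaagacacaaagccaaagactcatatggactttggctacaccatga
178 bp unit of chromosome 4, chr4:3950682-3950859, minus strand: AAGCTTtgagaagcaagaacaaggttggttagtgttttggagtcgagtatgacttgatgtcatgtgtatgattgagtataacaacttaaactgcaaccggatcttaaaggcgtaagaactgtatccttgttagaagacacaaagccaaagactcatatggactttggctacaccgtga
178 bp unit of chromosome 5, chr5:11702070-11702247, minus strand: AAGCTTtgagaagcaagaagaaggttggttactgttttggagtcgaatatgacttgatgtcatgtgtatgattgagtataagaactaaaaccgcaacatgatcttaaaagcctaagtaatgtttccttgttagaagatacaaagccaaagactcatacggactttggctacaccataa
The 10 pairs of these units were 89.9% to 96.1% identical over the 178 bases, and the search had asked for at least 80% identity with the unit of chromosome 1. Near-identical copies on 5 chromosomes cannot be told apart by short reads where they do not differ, and how such reads were placed is not given in the sources used here. HindIII sites were found in 380 of 381 pericentromeric bins (99.7%) and in all arm and end bins. The median number of sites per bin was 26 in pericentromeres and 26.5 in arms, but the range was 0 to 400 in pericentromeres and 5 to 57 in arms.

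At least 10% of the bin lay under the 178 bp tandem repeat in 16 pericentromeric bins, 2 on chromosome 2, 5 on chromosome 4 and 9 on chromosome 5, and in no arm or end bin. A second tandem repeat with a unit of 159 bp reached 10% in 9 pericentromeric bins, 7 on chromosome 1 and 2 on chromosome 4. A unit of its longest run, of 11235 bp, is shown because it holds no HindIII site and so no capitals, unlike the 178 bp units printed above.
159 bp unit of chromosome 1, chr1:14702748-14702906, plus strand: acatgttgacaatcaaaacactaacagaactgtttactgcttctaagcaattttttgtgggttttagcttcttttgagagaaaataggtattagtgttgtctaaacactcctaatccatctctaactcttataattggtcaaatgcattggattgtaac
Both repeats are short units in long tandem runs. The printed 178 bp units were picked to start at a HindIII site with another site 178 bp further on, so their sites were set by the choice. The number of sites per copy was not counted for either repeat.

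Pieces of 150 bases under the strongest peak that all 4 lists of a mark shared in a pericentromere are shown to give the kind of sequence that carries each mark there. The H3K27me3 piece lies within AT1G35830 (minus strand, 13320675 to 13322511) and is 100% coding, and the H3K4me3 piece lies near the 5′ end of PCN (AT4G07410, minus strand, 4200506 to 4205356), which codes for a WD40 repeat protein, and is 48% coding. Capitals mark GAGAGA, the core of the GA-rich motif that BPC proteins of plants bind, searched as GAGAGA and as TCTCTC on the other strand.
H3K27me3 peak piece, chr1:13321593-13321742, plus strand: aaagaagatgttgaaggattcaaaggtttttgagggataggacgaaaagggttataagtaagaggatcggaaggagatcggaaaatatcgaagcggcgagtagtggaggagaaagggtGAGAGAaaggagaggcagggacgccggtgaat
H3K4me3 peak piece, chr4:4204541-4204690, plus strand: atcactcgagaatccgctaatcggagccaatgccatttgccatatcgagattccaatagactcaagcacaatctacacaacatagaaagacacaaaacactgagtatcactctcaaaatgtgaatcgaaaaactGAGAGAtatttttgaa
Of windows of 150 bases, 10.4% held the motif on either strand in pericentromeres and 13.6% in arms, so a match is common and marks no site by itself. The H3K27me3 peak had a fold enrichment of 4.21 and 6.29 in Col-0 against 3.80 and 4.16 in 4 × Col-0. The H3K4me3 peak had a fold enrichment of 10.6 and 5.74 in Col-0 against 4.32 and 4.96 in 4 × Col-0. Both peaks were thus called in each list of their mark, with the lower folds in the autotetraploid. Over H3K4me3 peaks outside pericentromeres the median fold was 4.00 and 3.70 in Col-0 against 3.26 and 3.56 in 4 × Col-0. Lower folds were thus not particular to the H3K4me3 peak shown. For H3K27me3 these medians were 2.27 and 2.47 in Col-0 against 2.22 and 2.32 in 4 × Col-0, which overlapped.

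The Hi-C libraries held 2753780 and 19278810 contacts in Col-0 (replicates 1 and 2) and 6153679 and 25961427 in 4 × Col-0. Replicate 1 was the shallower library in both genotypes. The median pericentromeric bin had 1428 and 10016 contacts in Col-0 against 3118 and 14495 in 4 × Col-0, counted with all partners. Unless stated otherwise, a contact value below is the mean balanced signal per pair of bins, with every library scaled to the same total of 10000000, and values are given in the order replicate 1, replicate 2. A class of contacts is called higher or lower in 4 × Col-0 only where both of its libraries lay beyond both Col-0 libraries. With 2 libraries against 2, the exact permutation test, two-sided, cannot give a p-value below 0.333, which is 0.444 after Benjamini-Hochberg adjustment over the 48 contact comparisons made, so none of them could reach 0.05.

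Pericentromeric bins of the same chromosome had less contact with each other in 4 × Col-0 than in Col-0. The signal per pair was 44.0 and 45.8 in Col-0 against 41.3 and 41.3 in 4 × Col-0, and the libraries of the genotypes did not overlap. On the log2 scale, 4 × Col-0 minus Col-0 was −0.12 (exact permutation test, p = 0.333), and it lay between −0.14 on chromosome 2 and −0.10 on chromosome 3. Chromosome 4, with the shortest pericentromere, had the highest signal, 60.7 and 62.4 in Col-0 against 57.2 and 55.4 in 4 × Col-0. Chromosome 3, with the longest, had 37.7 and 39.5 in Col-0 against 35.6 and 36.2 in 4 × Col-0. On each of the 5 chromosomes both autotetraploid libraries lay below both diploid ones. In unbalanced contacts the genotypes overlapped on chromosomes 2 and 3 and over all 5 (log2 ratio −0.12). With every library scaled separately within and between chromosomes, the log2 ratio over all 5 was −0.049, without overlap.

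At the same distance along the chromosome, pericentromeric bins had more balanced signal than arm bins at short range and less at long range, in both genotypes. The ratio of pericentromere to arm was 1.21 and 1.06 in Col-0 against 1.15 and 1.04 in 4 × Col-0 at 50 kb. It was 1.48 and 1.51 in Col-0 against 1.52 and 1.48 in 4 × Col-0 at 200 kb. It was still above 1 at 1000 kb and below 1 at 1500 kb, with 0.816 and 0.867 in Col-0 against 0.857 and 0.908 in 4 × Col-0, and at 2000 kb it was 0.541 and 0.645 in Col-0 against 0.656 and 0.703 in 4 × Col-0. At 2000 kb both autotetraploid libraries lay above both diploid ones, while the libraries overlapped at 50, 200 and 500 kb. At 1000 kb, with 1.03 and 1.09 in Col-0 against 1.07 and 1.11 in 4 × Col-0, they overlapped as well. Averaged over distance, the log2 change of the ratio was 0.03, and the genotypes overlapped, while on chromosomes 4 (0.085) and 5 (0.037) they did not and 4 × Col-0 was higher. This separation was lost in 2 of 5 alternatives that kept all libraries on chromosome 4 and in 5 of 5 on chromosome 5. The excess at short range turned in unbalanced contacts, where the ratio was 0.587 to 0.635 at 50 kb and 0.723 to 0.814 at 200 kb over the 4 libraries. At 2000 kb the unbalanced ratio was 0.273 and 0.362 in Col-0 against 0.328 and 0.404 in 4 × Col-0, so the genotypes overlapped there.

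**Figure D1:**
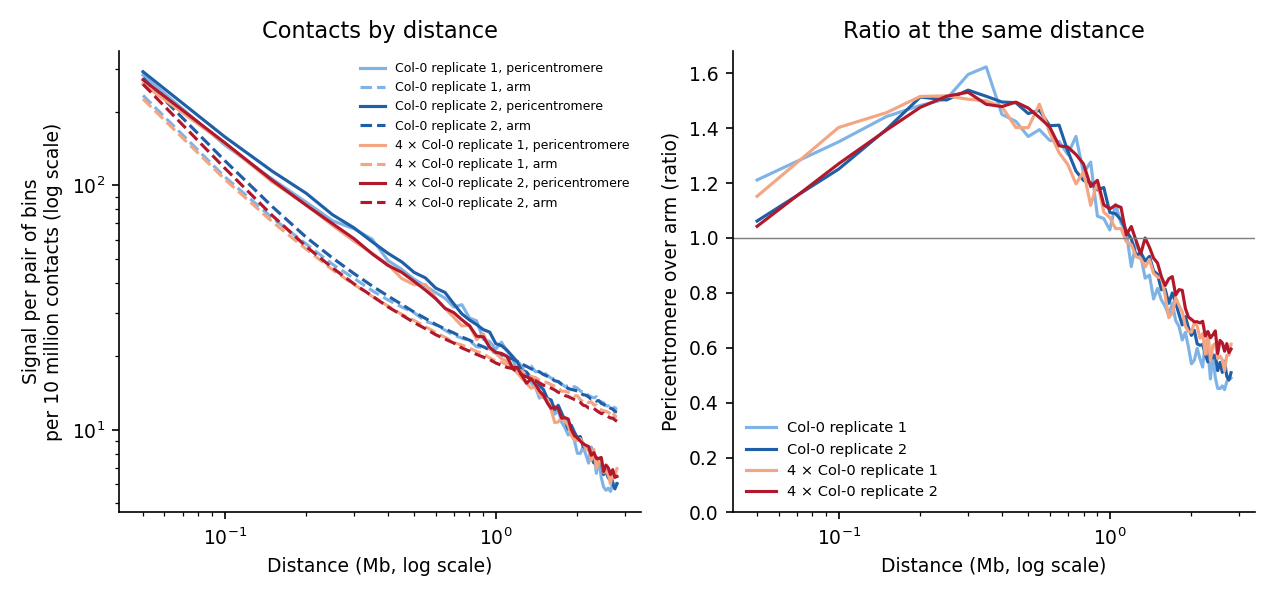
Mean balanced signal per pair of bins (log scale, left) and the ratio of pericentromere to arm (right) against distance in Mb (log scale), 1 line per library, solid for pericentromeres and dashed for arms. In all 4 libraries the ratio was 1.48 to 1.52 at 200 kb and lower at long range, with 0.816 to 0.908 at 1500 kb and 0.541 to 0.703 at 2000 kb.

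Between pericentromeres of different chromosomes, contact was higher in 4 × Col-0. The signal per pair was 1.72 and 1.82 in Col-0 against 2.00 and 2.21 in 4 × Col-0, without overlap, over 55817 pairs of bins. The log2 ratio was 0.25, a rise of 19.2% (exact permutation test, p = 0.333), and replicate 2 exceeded replicate 1 by 0.09 in Col-0 and by 0.15 in 4 × Col-0 on the log2 scale. The same comparison between arms gave 1.57 and 1.49 in Col-0 against 1.67 and 1.64 in 4 × Col-0, which is 0.12 on the log2 scale. Contacts between chromosomes as a whole thus made up more of the autotetraploid libraries. With every library scaled to the same total of contacts between chromosomes, the log2 ratio between pericentromeres was 0.13, with overlap between the genotypes.

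All 10 pairs of chromosomes had higher contact between their pericentromeres in both 4 × Col-0 libraries than in both Col-0 libraries. The pair of chromosomes 2 and 4 had the highest level and the smallest change, with 2.59 and 2.51 in Col-0 against 2.69 and 2.89 in 4 × Col-0 (log2 ratio 0.13). The pair of chromosomes 4 and 5 had the largest change, from 1.77 and 2.12 in Col-0 to 2.25 and 2.62 in 4 × Col-0 (log2 ratio 0.33). The pair of chromosomes 1 and 2 had the lowest level, with 1.41 and 1.53 in Col-0 against 1.68 and 1.89 in 4 × Col-0 (log2 ratio 0.28). The 10 pairs share chromosomes and libraries, so they are not independent of each other. Under the alternatives that kept all 4 libraries, the genotypes overlapped in 27 of 80 values for these pairs, and the sign turned in none. Each pair rested on at least 877 contacts, the number between chromosomes 1 and 4 in Col-0 replicate 1, and on up to 28939 in 4 × Col-0 replicate 2.

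**Figure D2:**
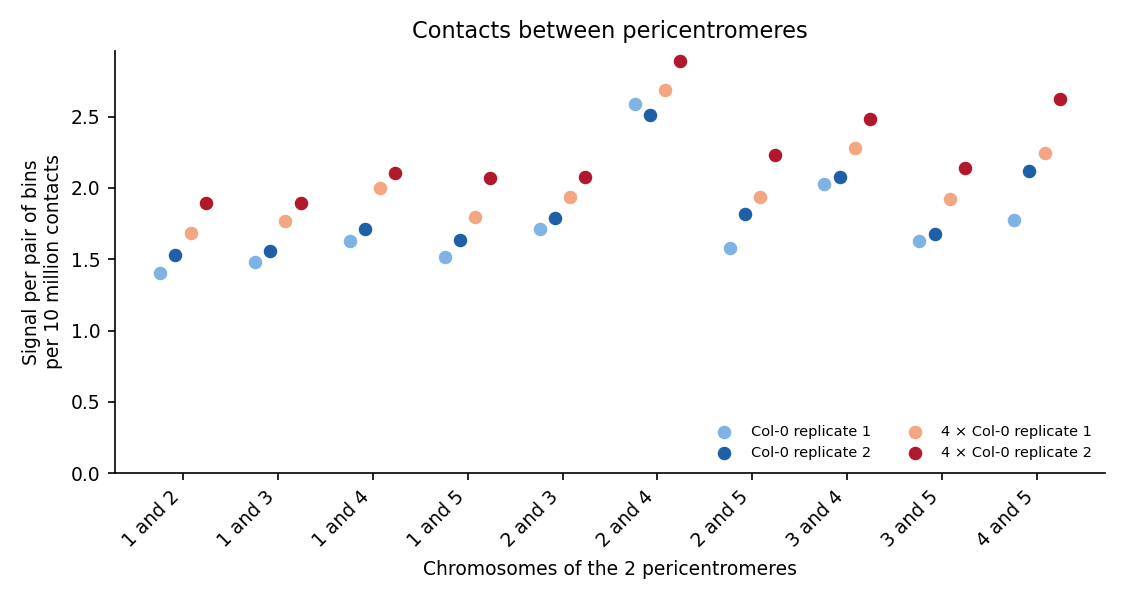
Mean balanced signal per pair of bins, per library total of 10000000, for pericentromeres of each pair of chromosomes, 1 point per library. The 2 red points (4 × Col-0) lie above the 2 blue points (Col-0) in each of the 10 pairs, and the pair of chromosomes 2 and 4 has the highest values, from 2.51 to 2.89.

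In contacts between pericentromeres, 1 bin of each chromosome stood out. Each chromosome's bin with the most contacts with other pericentromeres, counted before balancing and chosen after its values were seen, lay at chr1:15050001-15100000, chr2:3600001-3650000, chr3:13550001-13600000, chr4:3950001-4000000 and chr5:11700001-11750000. These 5 bins, called junction bins here, each hold a gap of the assembly, of 1000 to 1325 unknown bases, and between 7.14% (chromosome 1) and 57.1% (chromosome 4) of their length is 178 bp repeat. The bins of chromosomes 1 and 3, with 7.14% and 8.62%, fell below the limit of 10% used for the 16 repeat bins. The units printed above come from these bins. Each of the 10 pairs they form ranked 1 among all pairs of bins of its chromosomes by number of contacts, from 656 contacts between chromosomes 1 and 4 to 4997 between chromosomes 3 and 5, summed over the 4 libraries.

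The contacts among the junction bins followed the replicate number more than the genotype. Their signal per pair was 52.9 and 432 in Col-0 against 38.9 and 196 in 4 × Col-0, from 197, 14276, 282 and 9456 contacts. Both replicate 2 libraries were several times as high as both replicate 1 libraries, and the genotypes overlapped (log2 ratio −0.79). The junction pairs took 1.31% and 11.6% of the contacts between pericentromeres in Col-0 against 0.773% and 4.75% in 4 × Col-0. Pairs of 1 junction bin and another pericentromeric bin had 7.68 and 11.1 in Col-0 against 7.45 and 10.4 in 4 × Col-0, again ordered by replicate number. The 178 bp repeat bins did the same between chromosomes, with 12.4 and 50.8 in Col-0 against 13.0 and 29.8 in 4 × Col-0.

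Without the junction bins, the difference between the genotypes was larger, and it was alike with and without balancing. The remaining 54327 pairs had 1.54 and 1.49 in Col-0 against 1.85 and 1.96 in 4 × Col-0 (log2 ratio 0.33, exact permutation test, p = 0.333), and the replicates of a genotype lay closer together than over all pairs. In unbalanced contacts per pair, these pairs had 0.826 and 0.765 in Col-0 against 0.933 and 1.07 in 4 × Col-0 (log2 ratio 0.33). Over all pairs, unbalanced contacts overlapped between the genotypes, with 0.978 and 1.14 in Col-0 against 1.06 and 1.37 in 4 × Col-0. This choice of pairs was made after seeing the data. The part of read placement in repeats in these values was not tested.

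**Figure D3:**
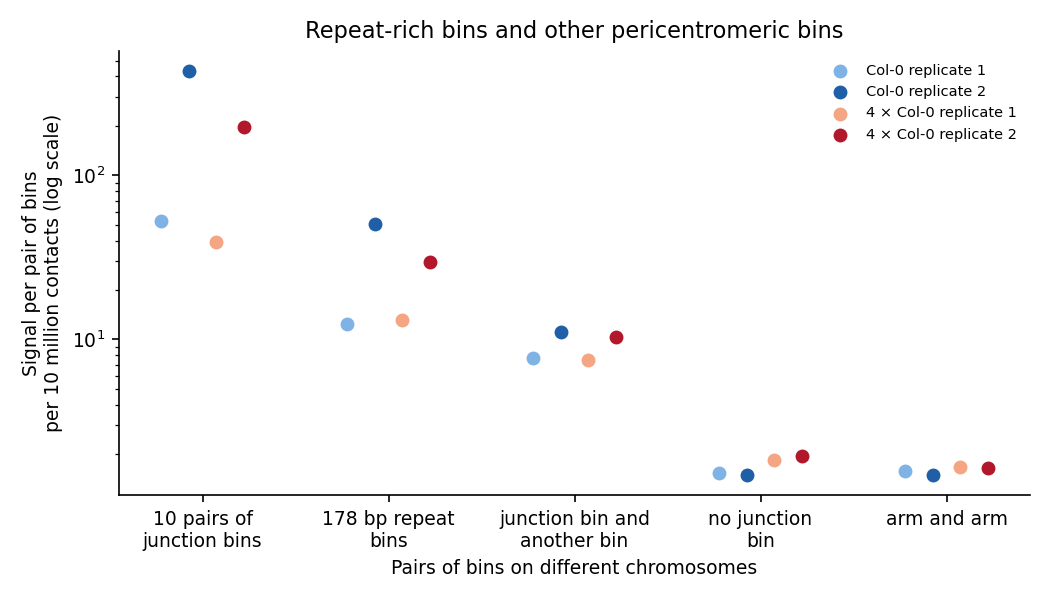
Mean balanced signal per pair of bins on different chromosomes (log scale), per library total of 10000000, for kinds of pericentromeric pairs and for arm pairs, 1 point per library. The junction pairs range from 38.9 to 432 and follow the replicate number, while pairs without a junction bin range from 1.49 to 1.96 and separate the genotypes.

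Set against arms, the direction depended on balancing. In balanced signal, contact between pericentromeres was higher than between arms in every library, with ratios of 1.09 and 1.22 in Col-0 against 1.20 and 1.35 in 4 × Col-0 (exact sign-flip permutation test over 4 libraries, two-sided, p = 0.125, the smallest it can give). In unbalanced contacts it was lower in every library, with ratios of 0.571 and 0.701 in Col-0 against 0.577 and 0.770 in 4 × Col-0. In Col-0 the excess in balanced signal was absent once the repeat bins were left out. Without the 178 bp repeat bins, the ratio was 0.962 and 0.983 in Col-0, below 1, and 1.08 and 1.16 in 4 × Col-0, above 1 (log2 difference 0.20, exact permutation test, p = 0.333). In unbalanced contacts these ratios were below 1 in both genotypes, 0.491 and 0.526 in Col-0 against 0.515 and 0.642 in 4 × Col-0, and overlapped. Without the junction bins, it was 0.985 and 0.998 in Col-0 against 1.10 and 1.19 in 4 × Col-0, again without overlap, as in unbalanced contacts (log2 difference 0.21). With all bins kept, the test of whether the change between pericentromeres exceeded that between arms gave a log2 difference of 0.14 with overlapping genotypes (exact permutation test, p = 0.667).

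Within a pericentromere, contact with other pericentromeres was highest near the centre and fell towards the borders in all 4 libraries. The median over bins within 500 kb of the centre was 1.76 and 1.82 in Col-0 against 2.09 and 2.30 in 4 × Col-0. In bins more than 1500 kb away it was 1.32 and 1.13 in Col-0 against 1.53 and 1.52 in 4 × Col-0. At each of the 4 distances from the centre, both autotetraploid libraries lay above both diploid ones. Across the 375 bins, the mean contact had a Spearman correlation of −0.68 with the distance from the centre, of −0.54 with the number of coding genes and of 0.46 with GC content. These are descriptions across bins that share libraries, neighbours and base composition. The log2 change between the genotypes had correlations near 0 with the same features, such as 0.05 with the distance and −0.06 with GC content.

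**Figure D4:**
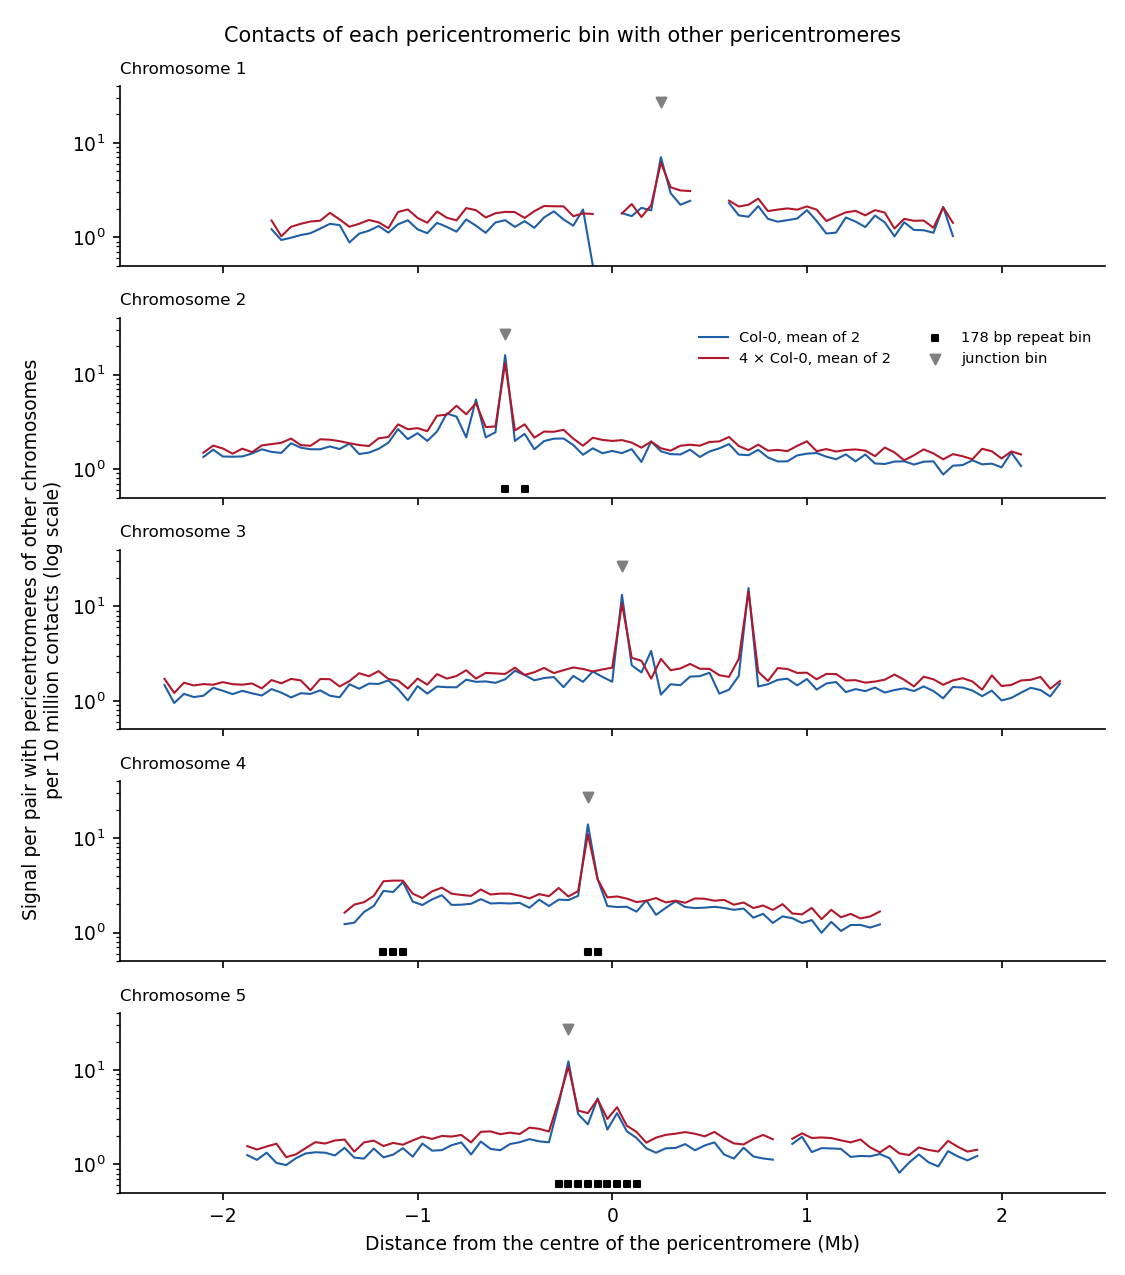
Mean signal per pair of each pericentromeric bin with pericentromeres of other chromosomes (log scale) against the distance of the bin from the centre of its pericentromere in Mb, averaged over the 2 libraries of a genotype. The junction bins and a bin on the right of chromosome 3, with 13.9 to 16.2 in the 4 libraries, stand out, the red line lies above the blue one in most other bins, and gaps are bins without signal. The blue line drops close to the lower edge of the axis in a bin of chromosome 1 that had no such contact in Col-0 replicate 1.

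The second peak on chromosome 3 was the bin chr3:14200001-14250000, which had the highest balanced signal of its chromosome, 15.0 and 16.2 in Col-0 against 13.9 and 14.8 in 4 × Col-0. Before balancing it had fewer contacts with other pericentromeres than the junction bin, 13321 against 38375 in all. The bin before it holds the annotated ribosomal RNA genes AT3G41768 (18S, chr3:14197677-14199484, plus strand) and AT3G41979 (5.8S, chr3:14199753-14199916, plus strand). Its contacts with the chromosome ends that carry ribosomal RNA arrays were looked up after these values were seen. With the first 50 kb of chromosome 4 it had 140 and 161 in Col-0 against 133 and 196 in 4 × Col-0, from 508 contacts in all, where the median over the other 318 pericentromeric bins was 1.87 and the highest 17.5. With the first 50 kb of chromosome 2, which hold the 18S gene AT2G01010, it had 290 and 164 in Col-0 against 133 and 130 in 4 × Col-0, from 145 contacts, against a median of 1.36. With the first 50 kb of chromosome 1 it had 14.9 and 17.5 in Col-0 against 32.8 and 19.4 in 4 × Col-0, from 54 contacts. There the median over other pericentromeric bins was 1.11 and the highest 8.08. With the first 50 kb of chromosome 5 it had 33.5 and 12.8 in Col-0 against 5.73 and 15.3 in 4 × Col-0, from 49 contacts. There the median was 1.03 and the highest 6.39. High contact of this bin was thus not confined to chromosomes 2 and 4, though it was higher with those. The genotypes overlapped with chromosome 4, and the autotetraploid libraries were lower with chromosome 2, where replicate 1 of each genotype rests on only 9 and 10 contacts. Near-identical ribosomal sequence lies on these chromosomes, and the part of read placement was not tested.

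Another group of 5 bins, chr2:3250001-3500000, was nearly all sequence shared with the mitochondrial genome. Between 96.1% and 98.5% of their words of 25 bases were found in the mitochondrial sequence of the same assembly, and no other bin of the genome reached 50%. These bins had few contacts in all, with a median of 286 and 2026 in Col-0 against 712 and 3461 in 4 × Col-0, below the medians over pericentromeric bins given above in every library. Their balanced signal with other pericentromeres ranged from 1.22 to 6.46 over bins and libraries. The bin chr2:3400001-3450000 had the fewest contacts of the 5, with 69 and 238 in Col-0 against 219 and 431 in 4 × Col-0.

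Contact of pericentromeres with arms of other chromosomes was higher in 4 × Col-0, and contact with their own arms differed little. With arms of other chromosomes the signal per pair was 1.20 and 1.14 in Col-0 against 1.31 and 1.40 in 4 × Col-0, without overlap (log2 ratio 0.22, exact permutation test, p = 0.333). The change was higher for all 5 pericentromeres and ran from 0.16 on chromosome 2 to 0.26 on chromosome 4. With the arms of the same chromosome the values were 5.21 and 5.17 in Col-0 against 5.17 and 5.11 in 4 × Col-0, which overlapped (log2 ratio −0.01). By chromosome, own arms were lower without overlap on chromosome 2 (5.30 and 5.27 in Col-0 against 5.10 and 5.05 in 4 × Col-0, log2 ratio −0.057) and on chromosome 3 (log2 ratio −0.035), and overlapped on the other 3. With scaling within and between chromosomes, both of these turned, to 0.015 and 0.037. Relative to contacts between arms of different chromosomes, those of pericentromeres with other arms were 0.765 and 0.764 in Col-0 against 0.786 and 0.854 in 4 × Col-0. Pericentromeres thus met arms of other chromosomes less often than those arms met each other in all 4 libraries (exact sign-flip permutation test, p = 0.125), with the autotetraploid libraries nearer to 1. In unbalanced contacts these ratios were 0.551 to 0.641, and the genotypes overlapped.

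With chromosome ends, levels differed between chromosomes more than between genotypes. Pericentromeres of chromosomes 2 and 4, which have short arms, had 6.75 and 6.93 (chromosome 2) and 6.26 and 6.20 (chromosome 4) with the ends of their own chromosome in Col-0, and 6.21 and 6.35 and then 5.80 and 5.94 in 4 × Col-0. The left end alone gave 11.4 and 11.7 in Col-0 against 10.4 and 10.6 in 4 × Col-0 on chromosome 2, where the right end gave 2.09 and 2.20 in Col-0 against 2.04 and 2.14 in 4 × Col-0. On chromosome 2 the near end, past the short arm, thus carried most of this contact. Pericentromeres of chromosomes 1, 3 and 5 had 1.79 to 2.43 with their own ends in the 4 libraries. Over all chromosomes, contact with the own ends was 3.45 and 3.50 in Col-0 against 3.28 and 3.39 in 4 × Col-0 (log2 ratio −0.06), and the genotypes did not overlap. This ratio turned to 0.013, with overlap, when libraries were scaled within and between chromosomes, and they also overlapped in unbalanced contacts. Own ends of chromosome 5 had a positive ratio with overlap (0.075), and the right ends of chromosomes 4 and 5 were higher in 4 × Col-0 without overlap (0.13 and 0.12). With ends of other chromosomes it was 1.19 and 1.20 in Col-0 against 1.26 and 1.39 in 4 × Col-0 (log2 ratio 0.15), also without overlap, and the scaling within and between chromosomes left 0.027 with overlap. The left ends of chromosomes 2 and 4 also had the highest contacts with the pericentromere of the other of this pair, 2.24 to 2.48 from chromosome 2 to the end of chromosome 4 and 2.09 to 2.39 in the other direction.

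Each bin's contact with pericentromeres of other chromosomes was then tested on its own, with limma across all 2376 bins with signal and Benjamini-Hochberg adjustment. Signal was scaled to the library total here, and scaling within and between chromosomes was not tried for single bins. At an adjusted p-value under 0.05, 48 of the 375 pericentromeric bins were higher (12.8%) and 1 was lower, where 4.21% of all bins tested were higher and 0.0421% lower. In arms, 52 of 1767 bins were higher (2.94%), and in ends none of 234, with 33 higher and 3 lower there at an unadjusted p-value under 0.05. The median log2 change was 0.33 over pericentromeric bins and 0.22 over all bins. Changes were above 0 in 361 of the 375 pericentromeric bins and in 2216 of all 2376 bins, so a positive sign was common everywhere. The 48 higher bins were 20, 13, 8, 5 and 2 bins of chromosomes 5, 3, 1, 2 and 4, respectively. None of the 16 bins of 178 bp repeat passed, with 5 at an unadjusted p-value under 0.05.

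The number of bins called depended on single libraries. In place of 49 pericentromeric bins, 4 were called without Col-0 replicate 1, 78 without Col-0 replicate 2, none without 4 × Col-0 replicate 1 (140 at an unadjusted p-value under 0.05) and 2 without 4 × Col-0 replicate 2. With limma voom on the recovered contacts, 47 bins were called, all higher.

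Of the 10 called bins with the largest changes, 4 lay on chromosome 3 and 4 on chromosome 5, with a single bin on each of chromosomes 1 and 2. The bin chr3:13750001-13800000, 91.8% masked as repeats and without a coding gene, had 1.09 and 1.24 in Col-0 against 3.23 and 2.34 in 4 × Col-0, with 96 to 689 contacts in all. Its log2 change was 1.23 with a standard error of 0.16 (limma, adjusted p = 8.23e-06). The bin before it, chr3:13700001-13750000, was the single lower bin, with 3.62 and 3.13 in Col-0 against 1.34 and 2.10 in 4 × Col-0 (log2 change −1.0, standard error 0.17, limma, adjusted p = 0.000907). With limma voom on its contacts the direction of this bin turned, to 0.58, so its call rests on the balanced signal. These neighbours lie on opposite sides of the genotype comparison, and each had fewer contacts than the median pericentromeric bin in every library.

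The bin chr1:14700001-14750000, of which 77.2% is the 159 bp repeat printed above, had no contact with other pericentromeres in Col-0 replicate 1, 1.01 in replicate 2, and 1.72 and 1.81 in 4 × Col-0. It held only 43 and 244 contacts in Col-0 against 114 and 350 in 4 × Col-0, so no fold change is given. The bin chr2:3400001-3450000, of mitochondrial sequence, had 1.34 and 3.00 in Col-0 against 4.12 and 3.49 in 4 × Col-0 (log2 change 0.92). On chromosome 5, the bin chr5:12700001-12750000 had 1.01 and 1.30 in Col-0 against 2.28 and 1.82 in 4 × Col-0 from at least 713 contacts in every library (log2 change 0.82, standard error 0.16, limma, adjusted p = 0.0057). Its neighbour chr5:12750001-12800000 had 0.972 and 1.27 in Col-0 against 1.76 and 1.94 in 4 × Col-0 (log2 change 0.73). Both bins of chromosome 5 lacked peaks of H3K27me3 and of H3K4me3 in all lists. The other 4 of the 10 bins, 2 on chromosome 3 and 2 on chromosome 5, had log2 changes between 0.64 and 0.68.

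The bins with the least contact with other pericentromeres lay near the borders. On chromosome 1 the lowest bin was chr1:13100001-13150000, with 1.04 and 0.829 in Col-0 against 0.964 and 1.09 in 4 × Col-0, and on chromosome 3 it was chr3:11250001-11300000, with 0.961 and 0.936 in Col-0 against 1.30 and 1.12 in 4 × Col-0. The first overlapped between the genotypes and the other did not. On chromosome 5 the lowest bin, chr5:13400001-13450000, was also among the called ones, with 0.774 and 0.857 in Col-0 against 1.37 and 1.25 in 4 × Col-0 (log2 change 0.68, standard error 0.15, limma, adjusted p = 0.017). The lowest bins of chromosomes 2 and 4, chr2:5850001-5900000 and chr4:5150001-5200000, had means of 1.07 and 1.19 over the libraries, and the genotypes did not overlap in either. Of these 5 bins, chr3:11250001-11300000 held 12 coding genes and the others 4 to 8.

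As a share of all contacts of a bin, those with other chromosomes rose in most pericentromeric bins. The median share was 31.1% and 29.5% in Col-0 against 34.4% and 35.5% in 4 × Col-0, without overlap. It was below that of arms, with 36.2% and 34.5% in Col-0 against 38.8% and 38.7% in 4 × Col-0. With limma across all bins, 330 of 375 pericentromeric bins were higher in 4 × Col-0 (88.0%), where 57.5% of all bins tested were higher, and none was lower. At an unadjusted p-value under 0.05, 350 of the 375 were higher and none lower, against 1598 higher and none lower of all 2376. In arms 1011 of 1767 bins passed and in ends 25 of 234. The median log2 change was 0.21 in pericentromeres, 0.12 in arms and 0.07 in ends. Without 4 × Col-0 replicate 2, only 26 pericentromeric bins passed, 24 higher and 2 lower.

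The bin chr3:13750001-13800000 had the largest change in this share, from 31.1% and 26.2% in Col-0 to 42.2% and 38.7% in 4 × Col-0 (log2 change 0.50, standard error 0.07, limma, adjusted p = 0.000662). The bin that holds the ribosomal RNA genes, chr3:14150001-14200000, followed with 28.0% and 29.9% in Col-0 against 36.8% and 40.5% in 4 × Col-0 (log2 change 0.42). Next came chr1:15200001-15250000, with 30.4% and 29.3% in Col-0 against 37.0% and 39.9% in 4 × Col-0 (log2 change 0.36). In the 3 bins both autotetraploid libraries lay above both diploid ones. The junction bin of chromosome 2 had the highest mean share of the 5, 67.7% and 76.4% in Col-0 against 69.5% and 76.9% in 4 × Col-0, which overlapped.

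H3K27me3 peaks covered a small part of the pericentromeres, and slightly more of it in 4 × Col-0. The peaks covered 2.61% and 2.64% of the pericentromeric length in Col-0 against 2.83% and 2.76% in 4 × Col-0, without overlap (log2 ratio 0.09, exact permutation test, p = 0.333, or 0.538 after adjustment over 21 comparisons of peaks). Arms had 13.8% and 13.5% in Col-0 against 14.7% and 14.2% in 4 × Col-0. The ratio of pericentromere to arm was 0.188 and 0.196 in Col-0 against 0.193 and 0.194 in 4 × Col-0, so that the genotypes overlapped once the arms were taken into account. Coverage was highest on chromosome 3, with 4.03% and 4.10% in Col-0 against 4.20% and 4.06% in 4 × Col-0, and that chromosome alone overlapped between the genotypes. Of 3 alternatives that kept all lists, the separation was lost in 3 on chromosome 4, in 2 on chromosome 1 and over all 5, in 1 on chromosome 5 and in none on chromosome 2, and with borders moved inwards by 500 kb the sign turned on chromosomes 1 (−0.089) and 4 (−0.022). A peak was present in 127 to 138 of the 381 bins (33.3% to 36.2%), against 92.8% to 93.8% of arm bins.

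H3K27me3 coverage was higher at the borders of the pericentromeres than inside them. The outer 500 kb of the pericentromeres on each side had a coverage of 6.21% and 6.06% in Col-0 against 6.79% and 6.67% in 4 × Col-0, and the rest had 1.33% and 1.42% in Col-0 against 1.42% and 1.37% in 4 × Col-0. The rest overlapped between the genotypes. By distance from the centre, coverage rose from 0.237% to 0.388% within 500 kb to between 6.39% and 7.08% beyond 1500 kb. In the 178 bp repeat bins no list had a peak except that of Col-0 replicate 2, where coverage was 0.810%. Of the 296 peaks of the first Col-0 list in pericentromeres, 237 were met by a peak in the other 3 lists.

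No pericentromeric bin passed the test of H3K27me3 coverage, which was made on 123 of the 381 bins with a mean coverage of at least 1% and on 1943 bins in all. In limma, 0 of the 123 had an adjusted p-value under 0.05, as 0% of all bins tested. At an unadjusted one, 12 of the 123 were higher and 4 lower, against 194 higher and 57 lower of all 1943. The bin with the highest coverage was chr4:2750001-2800000, with 34.3% and 33.0% in Col-0 against 34.6% and 33.4% in 4 × Col-0, where the longest covered gene is the pseudogene AT4G05500. The highest bin of chromosome 5, chr5:10450001-10500000, had 26.8% and 23.4% in Col-0 against 37.6% and 34.4% in 4 × Col-0 (log2 change 0.51, standard error 0.10, limma, adjusted p = 0.32), and its longest covered gene is the beta-glucosidase gene BGLU24 (AT5G28510), at 0.273 and 0.284 FPKM. That bin and the highest of chromosome 2, chr2:6200001-6250000, with 22.7% and 18.8% in Col-0 against 26.9% and 28.3% in 4 × Col-0, had no overlap between the genotypes but did not pass the adjusted threshold.

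The chromosome 2 bin holds LURP1 (AT2G14560), a gene known for its induction by a pathogen, at 2.01 FPKM in Col-0 against 2.05 in 4 × Col-0. On chromosome 3 the highest bin, chr3:11900001-11950000, had 26.9% and 24.3% in Col-0 against 30.3% and 27.6% in 4 × Col-0 and holds AGL79 (AT3G30260), a MADS-box transcription factor gene, at 0.0999 FPKM in Col-0 and listed at 0 in 4 × Col-0. On chromosome 1 it was chr1:13250001-13300000, with 17.7% and 15.0% in Col-0 against 20.5% and 19.2% in 4 × Col-0, and the gene PUM10 (AT1G35750), of the family of Pumilio RNA-binding proteins, is listed at 0 in both. The FPKM values are given once per gene and genotype, from combined replicates, and were not tested. All 5 highest bins lay within 700 kb of a border of their pericentromere.

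**Figure D5:**
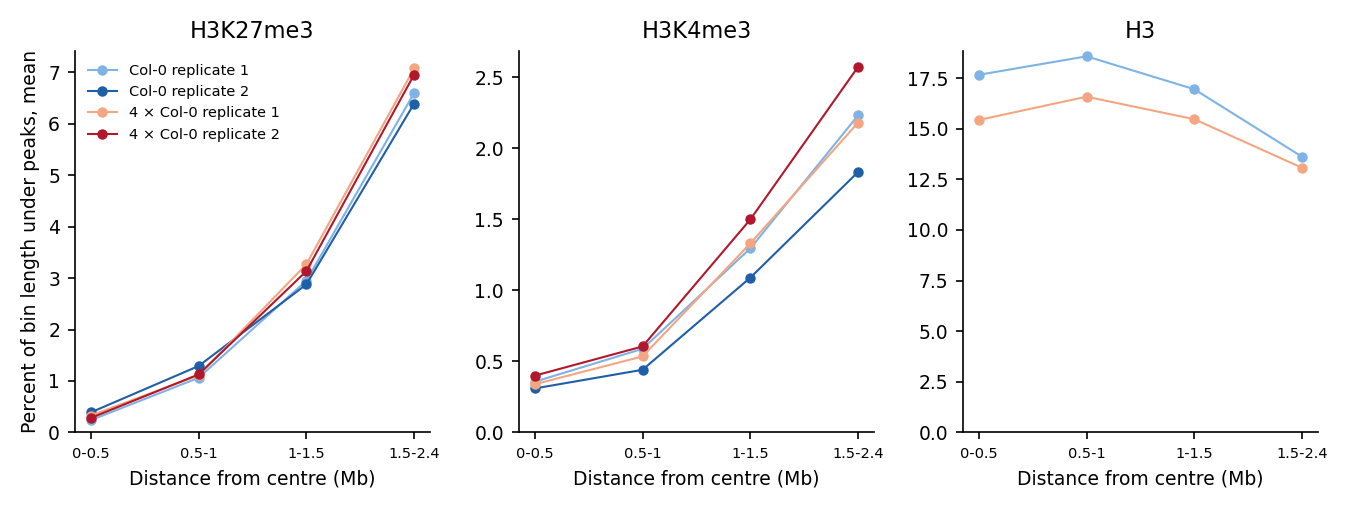
Mean percent of the bin length under peaks against the distance from the centre of the pericentromere in Mb, 1 line per peak list, for H3K27me3, H3K4me3 and H3 (1 list per genotype). H3K27me3 and H3K4me3 rise towards the borders, to between 6.39% and 7.08% and between 1.83% and 2.57%, while H3 falls to 13.6% in Col-0 against 13.1% in 4 × Col-0.

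H3K4me3 peaks covered about 1% of the pericentromeres, and over all 5 chromosomes the genotypes overlapped. Coverage was 1.09% and 0.892% in Col-0 against 1.07% and 1.23% in 4 × Col-0 (log2 ratio 0.22, exact permutation test, p = 0.667). On chromosomes 1, 4 and 5 both autotetraploid lists lay above both diploid ones, from 1.00% and 0.915% against 1.01% and 1.17% on chromosome 4 (log2 ratio 0.19) to 1.05% and 0.823% against 1.08% and 1.20% on chromosome 5 (log2 ratio 0.28), and chromosomes 2 and 3 overlapped. Each of the 3 separations was lost under at least 1 of the 3 alternatives that kept all lists. Arms had 9.63% and 8.40% in Col-0 against 9.65% and 10.7% in 4 × Col-0, and the ratio of pericentromere to arm was 0.113 and 0.106 in Col-0 against 0.110 and 0.115 in 4 × Col-0. The peaks are named merge in the replicate 1 lists and Rep4 in the replicate 2 lists. No source used here says what these names stand for, and lists that share reads would differ less than separate libraries do. A peak was present in 160 to 174 of the 381 bins. Beyond 1500 kb from the centre coverage was 1.83% to 2.57%, and within 500 kb it was 0.309% to 0.399%.

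In the 178 bp repeat bins, H3K4me3 coverage was 0.232% and 0.226% in Col-0 against 0.254% and 0.301% in 4 × Col-0. Of 377 peaks of the first Col-0 list in pericentromeres, 309 were met by a peak in the other 3 lists. In limma, on 135 of the 381 bins with a mean coverage of at least 1%, 1 pericentromeric bin was higher (0.741%), where 0.0949% of all bins tested were higher. At an unadjusted p-value under 0.05, 19 of the 135 were higher and none lower, against 263 higher and none lower of all 2107. The bin that passed the adjusted threshold, chr2:5500001-5550000, had 0.604% and 0.270% in Col-0 against 1.27% and 3.56% in 4 × Col-0 (log2 change 1.17, standard error 0.21, limma, adjusted p = 0.034). Its longest covered gene is the chromatin remodeller gene CHR5 (AT2G13370), at 3.11 FPKM in Col-0 against 5.37 in 4 × Col-0. The call was lost with coverage on a linear scale, without 4 × Col-0 replicate 2 and with a q-value limit of 1e-05.

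The genes named for the bins with the highest H3K4me3 coverage had higher FPKM values than those named for the H3K27me3 bins. Each was picked as the longest covered gene of its bin, so these values do not describe the other genes there. The bin chr3:11250001-11300000 had 9.41% and 8.58% in Col-0 against 9.13% and 10.4% in 4 × Col-0, and holds RIK (AT3G29390), which codes for a KH domain protein, at 14.1 and 15.0 FPKM. It is also the bin of chromosome 3 with the least contact with other pericentromeres. The bin chr4:2700001-2750000, at the border, had 8.73% and 6.84% in Col-0 against 9.09% and 10.9% in 4 × Col-0, and holds DDB1A (AT4G05420), of the CUL4 ubiquitin ligase complex, at 14.1 and 16.4 FPKM. The highest bins of chromosomes 1, 2 and 5 hold AT1G43690 (16.3 and 16.7 FPKM), AT2G05810 (4.18 and 4.18 FPKM) and the protein kinase gene NEK3 (AT5G28290, 4.69 and 6.22 FPKM). Of the 5 bins, only that of chromosome 4 is also next to a bin with the highest H3K27me3 coverage of its chromosome.

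H3 peaks covered more of the pericentromeres than of the arms in both genotypes. The control that these H3 peaks were called against is not given in the sources used here, so their coverage and fold enrichment are relative to an unknown background. Coverage was 16.8% in Col-0 against 15.2% in 4 × Col-0, against 7.93% and 8.22% of arms, so the ratio of pericentromere to arm was 2.12 and 1.85. There was 1 list per genotype, so the difference between the genotypes has no replicate check. The pericentromeres held 5449 of 21509 H3 peaks in Col-0 against 5709 of 23887 in 4 × Col-0, with a median fold enrichment of 2.58 and 2.59, below the 4.06 and 4.02 of other peaks. Peaks of H3 were thus many and low there. All 5 pericentromeres had the lower coverage in 4 × Col-0, from 14.3% against 12.8% on chromosome 1 to 18.0% against 16.5% on chromosome 4. The 178 bp repeat bins had 19.6% and 18.4%. Anti-H3 reads were the control for the peaks of both marks, and the part of this difference in the coverage of the marks was not tested.

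Pericentromeric bins held 1001 coding genes, 2.63 per bin against 12.7 per arm bin, and 95 bins held none. Of these genes, 35.0% (350 genes) in Col-0 against 34.5% (345 genes) in 4 × Col-0 reached 1 FPKM, compared with 65.5% and 66.6% of the coding genes of arms. Of the 1001 genes, 8 reached this limit in Col-0 alone and 3 in 4 × Col-0 alone, against 234 and 513 of all 26697 coding genes. The larger number was thus that of Col-0 here and that of 4 × Col-0 over all genes, with 1 value per gene and no test. The share was 30.2% against 30.5% on chromosome 2 and 30.2% against 29.4% on chromosome 3, and it was highest on chromosome 4, with 47.9% against 47.1%. GC content had a median of 37.0% in pericentromeric bins and 35.7% in arm bins, and the masked share of the sequence a median of 27.7% and 19.7%. Genes per bin rose with the distance from the centre together with both marks of genes, from 0.948 within 500 kb to 4.67 beyond 1500 kb, so that neither mark can be told apart from gene number along the pericentromere.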

How the data were processed

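The Hi-C reads of 4 libraries were processed by the authors with HiC-Pro and Juicer on TAIR10, and the deposited matrices hold KR-balanced contact signal between bins of 50 kb, 1 matrix per library, balanced within each chromosome and not scaled to a common depth. Balancing of this kind evens out the signal of bins within their own chromosome, so a bin with few reads carries its noise at full weight. The signal of a bin with other chromosomes is not evened out. The ChIP-seq peak lists deposited by the authors were called with Macs2 after alignment with BWA, with anti-H3 reads as the control for the marks and 1 list per sample, and list the fold enrichment of each peak, a ratio to the control, beside its q-value as −log10. What the H3 lists themselves were called against is not given in the sources used here. In the RNA table of the authors, each gene has 1 FPKM per genotype, made with STAR and featureCounts from replicates combined by a rule not given in the sources used here. The submitters' processing notes also name R 3.4.1. Input libraries of the series were not used here.

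Whole contacts were recovered by dividing out the bin factors (100% of values whole within 0.01), and their totals gave the depth. In Col-0 replicate 1, 58.7% of all pairs of bins, within and between chromosomes, had no contact. Single pairs are thus imprecise, and classes were summed over many pairs. Peak lists and FPKM values hold no reads, so their depth is unknown. Classes of contacts and peak coverage were compared with exact permutation tests, two-sided, on log2 values of the samples. Since these cannot pass 0.05, a class counts as changed under an alternative when the genotypes stop or start to overlap. Single bins were tested with limma 3.58.1 (R 4.3.3) on log2(signal + 0.01), on the log2 share of contacts with other chromosomes, and on log2(percent covered + 1) in bins with a mean of at least 1%, with Benjamini-Hochberg adjustment over all bins. The recovery of contacts and the limma fit were tested on simulated data, and the other steps were not. Tables were made with Python 3.11.15, NumPy 2.4.6, pandas 2.3.3 and SciPy 1.17.1.

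Bins named are, per chromosome, those with the highest and the lowest contact with other pericentromeres and the highest coverage of each mark, and up to 10 with the largest change past a test, and the gene named is the longest one covered there. The periods of 178 and 159 bp were those, between 100 and 300 bp, at which most pericentromeric sequence repeated, and a tandem repeat was called where units a period apart had at least 70% of bases equal. Sequences, gene types and symbols come from RefSeq TAIR10.1, in which 32820 of the 33278 nuclear loci of the RNA table were found. The members, lists and tests were chosen with earlier results of these data known. The alternatives were unbalanced contacts, scaling within and between chromosomes, borders moved by 500 kb, bins under 50% of the median contacts left out, contacts inside single bins left out, thinning to equal depth, a replicate block, limma voom, a pseudocount of 0.1, a linear scale, a minimum coverage of 5%, coverage relative to all chromosomes, a q-value of 1e-05 or less, and each sample left out in turn. Leaving out repeat or junction bins, a crossed block and the ratios to arms in unbalanced contacts were added after seeing the data.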

Additional observations from a re-analysis of the deposited data

How the results depend on the processing

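No class or coverage comparison of 2 samples against 2 could pass 0.05, so what could be lost was the separation of the genotypes. Of 314 alternative values that kept every sample, for results whose genotypes did not overlap, 232 kept the separation in the same direction. Contact between pericentromeres kept a positive log2 ratio under its 15 alternatives, up to 0.33 (without junction bins, unbalanced, chosen after seeing the data) and 0.18 to 0.32 with each library left out, but the genotypes overlapped in unbalanced contacts (0.20), after thinning to equal depth (0.21) and with scaling within and between chromosomes (0.13). The 10 chromosome pairs kept the sign in 130 of 130 alternatives, from 0.00404 to 0.54, with overlap in 27 of the 80 that kept all libraries. Contact within pericentromeres kept a negative ratio in its 14 alternatives, from −0.15 to −0.049, with overlap in unbalanced contacts (−0.12), after thinning (−0.12) and in unbalanced contacts without repeat bins (−0.11). Contact with own arms lost the overlap without low-contact bins (−0.027), without 178 bp repeat bins (−0.019) and without either repeat (−0.021). Own ends gained an overlap in unbalanced contacts with (−0.050) and without (−0.055) repeat bins, and other ends with scaling within and between chromosomes (0.027). The change between pericentromeres against arms lost its overlap without 178 bp repeat bins (0.20) and without either repeat (0.21). H3K27me3 coverage gained an overlap with borders moved by 500 kb (0.027) and relative to all chromosomes (0.014). By chromosome, own arms turned with scaling within and between chromosomes on chromosomes 1 (0.066), 2 (0.015) and 3 (0.037), and own ends on chromosomes 1 (0.039) and 3 (0.045). Own arms of chromosome 1 also turned with borders moved by 500 kb (0.022) and without 4 × Col-0 replicate 2 (−0.029 to 0.016 over the libraries left out), and own ends of chromosome 3 without 4 × Col-0 replicate 1 (−0.056 to 0.0021). Own arms of chromosome 5, at 0.010, turned in unbalanced contacts (−0.0012), without low-contact bins (−0.0014), after thinning (−0.0032), without 178 bp or either repeat (−0.0048 for both) and without repeats, unbalanced (−0.011). With scaling within and between chromosomes, contact with own arms turned to 0.058 and with own ends to 0.013, and that of chromosome 2 with ends of other chromosomes to −0.065. With borders moved by 500 kb, own arms gave 0.0097, and H3K27me3 coverage turned to −0.089 on chromosome 1, −0.00031 on chromosome 3 and −0.022 on chromosome 4. On chromosome 3, H3K27me3 also turned with coverage relative to all chromosomes (−0.057) and without 4 × Col-0 replicate 1 (−0.00129 to 0.0462 over the lists left out), and H3K4me3 on chromosome 2 turned with relative coverage (−0.00391). The cause of these turns was not tested.

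The count of bins with changed contact with other pericentromeres, 49, was 0 to 78 with each library left out, and that of bins with a changed share with other chromosomes, 330, was 26 to 356. For H3K27me3, the 0 bins became 0 to 5 with each list left out (5 lower without Col-0 replicate 1) and 4 with a q-value of 1e-05 or less. For H3K4me3, the 1 bin became 0 on a linear scale, 0 with a minimum coverage of 5%, 0 with a q-value of 1e-05 or less, and 0 to 18 with each list left out (18 without Col-0 replicate 1). In unbalanced contacts (chosen after seeing the data), pericentromeres turned from above to below arms in contact between chromosomes, with a mean log2 ratio to arms over the 4 libraries of −0.62, of −0.89 without 178 bp repeat bins and of −0.96 without junction bins, and the cause was not tested. The change of the ratio at the same distance turned on chromosome 1 without Col-0 replicate 1 (−0.020 to 0.12 over the libraries left out) and on chromosome 2 without 4 × Col-0 replicate 2 (−6.17e-06 to 0.037). The direction of the bin chr3:13700001-13750000 turned to 0.58 with limma voom. Where 1 sample of a genotype was left out, the remaining one was assumed to vary like the other genotype.

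Same-numbered samples deviated together over the pericentromeric bins by a correlation of 0.34 for both contact measures, 0.23 for H3K27me3 and −0.53 for H3K4me3, but with 2 numbers and no shared batch in the labels this does not pair them. The replicate block gave 29 bins for contact with other pericentromeres and 325 for the share with other chromosomes, left the counts of 0 for H3K27me3 and 1 for H3K4me3, and gave a log2 ratio of 0.25 between pericentromeres. Pairing the H3K4me3 lists crosswise called 22 pericentromeric bins, and 352 higher and 2 lower bins in all. The alternative pseudocount does not apply to shares. Depth limits single bins: bins of the 159 bp repeat or of mitochondrial sequence had as few as 43 contacts in a library, and the peak lists give no depth.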
